A study of Mus musculus with 84 samples.

Results

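The insulin, growth hormone and IGF axis was followed through 10 genes that code for its receptors, adaptors, circulating factor and binding proteins. The genes Insr, Irs1, Irs2, Igf1, Igfbp1, Igfbp2, Igfbp3, Igfals, Ghr and Socs2 were taken by symbol from the 48794 genes of the deposited tables, with no threshold on their values. All 10 genes passed the filter on low counts in liver and in epididymal white adipose tissue (eWAT).

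Male C57BL/6J mice with diet-induced obesity (DIO), fed a 60% high-fat diet throughout and 22 weeks old at the start, received daily subcutaneous doses for 30 days. Of the 11 mice in each group of the study, each tissue was represented by 6 libraries, in 7 groups: vehicle, 2 doses of semaglutide (20 and 100 nmol/kg) and 4 doses of BI 456906 (3 nmol/kg, 10, 20 and 30 nmol/kg). Semaglutide is an agonist of the GLP-1 receptor, and BI 456906 is a dual agonist of the GLP-1 and glucagon receptors. The comparisons ask which transcripts of the axis moved with each compound, whether they followed the dose of BI 456906, and whether the compounds differed. All mice were obese at the start and on the same diet, and no lean group is analysed here. The study reports that bodyweight, plasma insulin and leptin fell with both compounds, so the groups were not equally obese when tissue was taken. The part of these falls in the changes described below was not tested. The labels do not tie a liver library to an eWAT library of the same mouse.

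Insulin acts through its receptor (Insr), which phosphorylates the adaptors Irs1 and Irs2 and so starts the PI3K and Akt relay. In liver this relay excludes FOXO transcription factors from the nucleus and lowers transcription of Irs2, Igfbp1 and gluconeogenic genes. Pituitary growth hormone acts through its own receptor (Ghr), JAK2 and STAT5 to raise hepatic transcription of Igf1, Igfals and Socs2. Igf1 circulates mostly in a ternary complex with IGFBP-3 and the acid-labile subunit coded by Igfals, while IGFBP-1 and IGFBP-2 form binary complexes, and SOCS2 limits growth hormone signalling.

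In GRCm38 coordinates of GENCODE M21, the genes of the insulin receptor and its adaptors are Insr (ENSMUSG00000005534) at chr8:3122061-3279617 (- strand), Irs1 (ENSMUSG00000055980) at chr1:82233101-82291416 (- strand) and Irs2 (ENSMUSG00000038894) at chr8:10984681-11008458 (- strand). Those of the growth factor and growth hormone signalling are Igf1 (ENSMUSG00000020053) at chr10:87858265-87937042 (+ strand), Ghr (ENSMUSG00000055737) at chr15:3317760-3583492 (- strand) and Socs2 (ENSMUSG00000020027) at chr10:95385362-95417180 (- strand). Those of the carriers are Igfbp1 (ENSMUSG00000020429) at chr11:7197782-7202546 (+ strand), Igfbp2 (ENSMUSG00000039323) at chr1:72824503-72852474 (+ strand), Igfbp3 (ENSMUSG00000020427) at chr11:7206086-7213923 (- strand) and Igfals (ENSMUSG00000046070) at chr17:24865997-24882010 (+ strand). Igfbp1 and Igfbp3 are neighbours on opposite strands of chromosome 11.

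Recovered read totals were 21676902 to 53869104 per liver library and 37573004 to 53996914 per eWAT library. The lowest in liver were semaglutide library 77 at 20 nmol/kg (21676902) and library 81 at 100 nmol/kg (30040261), against a median of 43179390. The hepatocyte markers (6 genes) summed to between 73053 and 114920 TPM in liver, against 6.98 to 6356 TPM in eWAT. The adipocyte markers (6 genes) summed to between 10659 and 33776 TPM in eWAT, against 19.7 to 215 TPM in liver. Each of these 12 markers was detected in both tissues, and epididymis markers did not exceed 0.57 TPM in sum. TPM, a share of all transcripts of a library scaled by transcript length, allows levels of different genes to be compared but is relative to the rest of the library. In whole tissue, fewer cells of a type and less RNA per cell cannot be told apart.

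The promoters that hold a binding motif relevant to this axis are shown first. RefSeq promoter windows (GRCm38.p6, 250 bases before to 50 after a transcript start) were matched for 8 of the 10 genes, in 12 windows. Capitals mark the insulin response element core CAAAACA, or TGTTTTG where it lies on the other strand. The stretches of Igfbp1 (chr11:7197657-7197716, + strand), Irs1 (chr1:82291450-82291569, - strand) and Irs2 (chr8:11008940-11008999, - strand) lie upstream of the RefSeq start and outside the annotated gene of GENCODE M21.
Igfbp1: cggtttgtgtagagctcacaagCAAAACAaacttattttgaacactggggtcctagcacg
Irs1: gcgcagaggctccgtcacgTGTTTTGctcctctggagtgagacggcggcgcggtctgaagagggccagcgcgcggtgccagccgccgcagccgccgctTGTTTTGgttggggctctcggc
Irs2: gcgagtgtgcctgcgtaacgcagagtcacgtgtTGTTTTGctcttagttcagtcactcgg
Both strands were searched for each motif. The core was found for these 3 of the 8 genes, in 3 of the 12 windows, and in 6.28% of the 32851 windows of all genes. Igf1 and Igfbp2, which also rose in liver, had windows without the core. In Irs1 the core occurred at 2 positions. The STAT5 motif TTCNNNGAA was found for 1 of the 8 genes, Igfals, upstream of 2 of its RefSeq starts (chr17:24877594-24877643 and chr17:24878151-24878200, + strand), both within the gene as annotated because a longer transcript begins before them.
Igfals, first start: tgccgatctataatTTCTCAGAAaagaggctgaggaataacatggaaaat
Igfals, second start: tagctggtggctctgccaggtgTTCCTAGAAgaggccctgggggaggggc
The STAT5 letters occurred in 2 of the 12 windows and in 8.3% of all windows. The cyclic AMP response element TGACGTCA was found for 0 of the 8 genes and in 1.79% of all windows. Its half-site TGACG, which lies within the full element, was found for Irs1 and Igfals. The half-site occurred in 3 of the 12 windows and in 20.8% of all windows. These matches describe letters only, and Insr and Socs2 had no window.

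Levels in vehicle differed between the tissues. Igf1 had a mean of 323 TPM ± 32.1 (SD, n = 6) in liver and 139 TPM ± 23.9 in eWAT. Igfbp1 and Igfbp2 were abundant in liver, at 132 TPM ± 45.2 and 295 TPM ± 85.5, and low in eWAT, at 2.91 TPM ± 2.19 and 10.4 TPM ± 9.04. Igfals was at 63.2 TPM ± 12.7 in liver and 29.8 TPM ± 14.6 in eWAT. The receptors and adaptors had higher means in eWAT. Ghr was at 236 TPM ± 26.2 in liver and 392 TPM ± 125 in eWAT, Insr at 18.4 TPM ± 4.78 and 27.2 TPM ± 4.95, Irs2 at 11.5 TPM ± 4.57 and 25 TPM ± 6.28, and Irs1 at 3.17 TPM ± 0.532 and 6.27 TPM ± 1.7. Igfbp3 and Socs2 were at 13.6 TPM ± 3.6 and 15.4 TPM ± 4.32 in liver and at 25.5 TPM ± 10.1 and 13.6 TPM ± 1.5 in eWAT. No test was made between the tissues' levels. Within liver, Igf1, Igfbp2 and Ghr formed the upper end of the order and Irs1 the lower end, and the vehicle ranges of Irs2 (5.71 to 18.9 TPM), Igfbp3 (8.94 to 19.04 TPM), Socs2 (9.86 to 21.1 TPM) and Insr (12.7 to 26.7 TPM) overlapped.

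**Figure D1:**
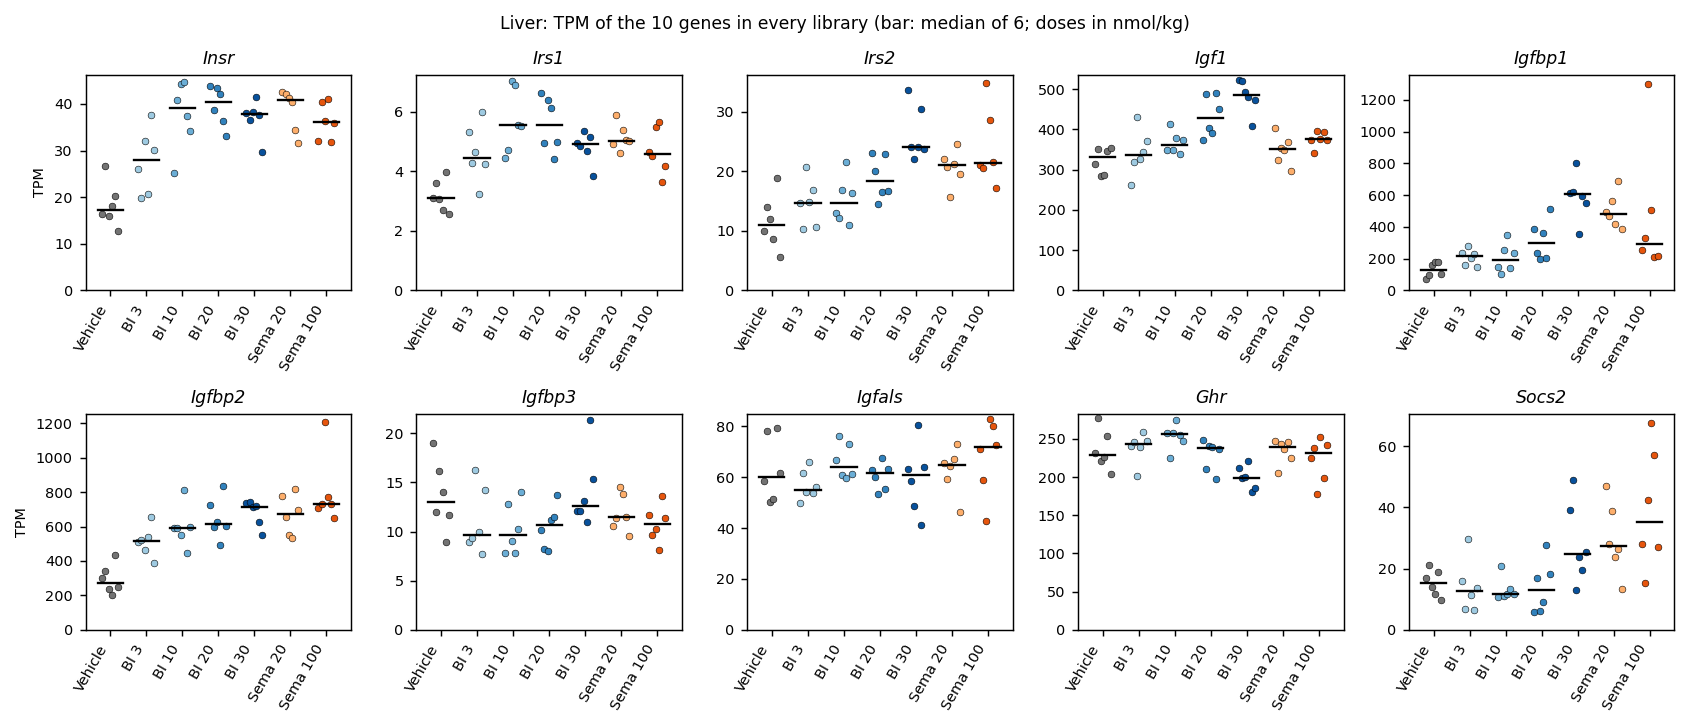
TPM of the 10 genes in each of the 42 liver libraries (points; y axis from 0), by group on the x axis, with a bar at the median of 6. Insr, Irs1, Irs2, Igf1, Igfbp1 and Igfbp2 had a higher median in each treated group than in vehicle. Igf1 and Igfbp1 had their highest median at 30 nmol/kg BI 456906, and Ghr its lowest (199 TPM).

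In liver, transcripts of the insulin receptor, both adaptors and 2 binding proteins rose, Igf1 rose at the upper doses, and Ghr fell at the highest dose of BI 456906. A gene was counted as changed when its FDR, the Benjamini-Hochberg adjusted p of limma/voom over 15964 genes, was at most 0.05. At 30 nmol/kg BI 456906, 6 of the 10 genes rose and 1 fell, where 58.8% of all genes tested changed. Of the 10, 3 changed at 3 nmol/kg, 4 at 10 nmol/kg and 7 at 20 nmol/kg, where 13.4%, 37.5% and 45.9% of all genes did. With semaglutide, 5 changed at 20 nmol/kg and 7 at 100 nmol/kg, where 46.5% and 48.2% of all genes did. The share of the 10 genes that changed lay near the share of all genes in the larger comparisons. Their median log2 fold change at 30 nmol/kg was 0.67, against -0.03 for all genes, whose median the scaling of the libraries keeps small. The 10 genes were chosen with earlier results of these data known, so the 2 medians are no test of the axis. The 3 calls at 3 nmol/kg (Insr, Irs1 and Igfbp2) had an FDR of 0.103 to 0.11 when only these groups were fitted. The 6 comparisons share the vehicle libraries.

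A log2 fold change of at least 1 in size, the cut the study used beside the FDR, was reached by 2, 3, 2 and 4 of the 10 genes at 20 and 30 nmol/kg BI 456906 and 20 and 100 nmol/kg semaglutide, where 6.69%, 12.9%, 6.08% and 6.75% of all genes reached it. At 3 and 10 nmol/kg, where 0.783% and 4.07% of all genes did, the largest values among called genes were 0.77 and 0.88 (Igfbp2). Insr stayed below the cut in the main fit but passed it under at least 1 other setting. Its largest values there were 1.05, 1.14 and 1.03 at 10, 20 and 30 nmol/kg BI 456906. With 20 and 100 nmol/kg semaglutide they were 1.10 and 1.01. Libraries of vehicle and treated groups did not overlap in TPM for 0, 2, 5 and 5 of the 10 genes with rising dose of BI 456906 and for 4 and 3 with semaglutide, where this held for 1.28%, 13.7%, 19.3%, 29.4%, 19.2% and 17.5% of all genes.

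Insr, the insulin receptor, ranged from 12.7 through a median of 17.3 to 26.7 TPM in vehicle. It ranged from 19.9 through 28.1 to 37.7 TPM at 3 nmol/kg BI 456906 and from 29.6 through 37.8 to 41.4 TPM at 30 nmol/kg, and from 31.6 through 40.8 to 42.6 TPM with 20 nmol/kg semaglutide. From 20 nmol/kg BI 456906 upward and with both semaglutide doses, the lowest treated library exceeded the highest vehicle library. On the log2 scale Insr was 0.43 ± 0.10 (SE) above vehicle at 3 nmol/kg and 0.72, 0.76 and 0.70 at 10, 20 and 30 nmol/kg, and 0.76 and 0.71 with semaglutide (FDR 0.0057 at 3 nmol/kg and at most 1.1e-06 in the others). The difference was of like size from 10 to 30 nmol/kg, and the slope over the 4 doses without vehicle was 0.09 ± 0.04 per 10 nmol/kg (FDR 0.051).

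Irs1, an adaptor of the insulin and IGF receptors, ranged from 2.56 through 3.09 to 3.96 TPM in vehicle. Its highest levels were at 10 nmol/kg BI 456906, from 4.43 through 5.54 to 7.02 TPM, and at 20 nmol/kg, from 4.4 through 5.55 to 6.64 TPM. At 30 nmol/kg it ranged from 3.83 through 4.9 to 5.34 TPM and overlapped vehicle. The log2 fold changes were 0.48, 0.73, 0.70 and 0.53 with rising dose and 0.62 and 0.48 with 20 and 100 nmol/kg semaglutide, each ± 0.13 (SE), with FDR from 1.8e-05 to 0.011. Genes on the opposite strand, Gm9747 and 9530052E02Rik, overlap 2822 exonic bases of Irs1 and 162 of Irs2, and did not exceed 0.06 and 0.75 TPM in any library of either tissue.

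Irs2, the adaptor that liver insulin signalling represses, ranged from 5.71 through 11.04 to 18.9 TPM in vehicle. It ranged from 10.3 through 14.7 to 20.7 TPM at 3 nmol/kg BI 456906, from 14.5 through 18.4 to 23.1 TPM at 20 nmol/kg and from 22.04 through 24.2 to 33.8 TPM at 30 nmol/kg. Only at 30 nmol/kg did all 6 libraries exceed all vehicle libraries. It rose by 1.19 ± 0.20 (SE) on the log2 scale at 30 nmol/kg (FDR 4.6e-06), by 0.68 ± 0.20 (FDR 0.0054) at 20 nmol/kg, and by 0.83 (FDR 0.00098) and 1.04 (FDR 6.9e-05) with 20 and 100 nmol/kg semaglutide. Unlike Insr, Irs2 kept a slope over the 4 doses without vehicle, 0.32 ± 0.07 per 10 nmol/kg (FDR 0.00036).

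Igf1, the circulating growth factor, ranged from 284 through 331 to 353 TPM in vehicle. The ranges were 263 through 335 to 430 TPM at 3 nmol/kg BI 456906, 338 through 361 to 412 TPM at 10, 374 through 427 to 490 TPM at 20, and 408 through 486 to 523 TPM at 30 nmol/kg. With semaglutide they were 296 through 351 to 404 TPM at 20 nmol/kg and 342 through 375 to 395 TPM at 100 nmol/kg. At 20 and 30 nmol/kg BI 456906 every library lay above every vehicle library, whereas both semaglutide groups overlapped vehicle. At 30 nmol/kg the rise was 1.67-fold, or 0.74 ± 0.14 on the log2 scale (SE, FDR 1.3e-05), against 0.37 ± 0.13 (FDR 0.022) at 20 nmol/kg and 0.35 ± 0.13 (FDR 0.031) with 100 nmol/kg semaglutide. The last 2 calls were each lost without any of 4 single libraries (vehicle 45 and 46 and BI 456906 20 nmol/kg 62 and 65, or vehicle 45 and 46 and semaglutide 81 and 83), with FDR up to 0.0749 and 0.0834. The slope was 0.24 ± 0.04 per 10 nmol/kg with vehicle and 0.25 ± 0.05 (FDR 5.9e-05) without it. Under the other settings the log2 rise of Igf1 at 30 nmol/kg was 0.58 to 0.76.

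Ghr, the growth hormone receptor, moved the other way. It ranged from 203 through 229 to 278 TPM in vehicle, from 225 through 256 to 274 TPM at 10 nmol/kg, and from 181 through 199 to 221 TPM at 30 nmol/kg BI 456906. Of the 6 vehicle libraries, 1 (library 48) lay within the range of the 30 nmol/kg group. Ghr fell at 30 nmol/kg, with a log2 value of -0.42 ± 0.09 relative to vehicle (SE, FDR 0.00023), and the values in the other groups ranged from -0.17 to 0.04 and did not pass the test. The slope over the 4 doses without vehicle was -0.16 ± 0.03 per 10 nmol/kg (FDR 0.00021). Under the other settings the log2 value of Ghr at 30 nmol/kg was -0.48 to -0.24.

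Igfbp1, a binding protein whose liver transcript insulin lowers, had the largest rise of the 10 genes in liver. It ranged from 75.1 through 131 to 178 TPM in vehicle, from 199 through 298 to 513 TPM at 20 nmol/kg and from 356 through 604 to 801 TPM at 30 nmol/kg BI 456906. With semaglutide it ranged from 386 through 478 to 689 TPM at 20 nmol/kg and from 211 through 291 to 1298 TPM at 100 nmol/kg. None of these 4 groups overlapped vehicle, while 3 and 10 nmol/kg BI 456906 did (150 through 217 to 278 TPM and 103 through 194 to 347 TPM). The log2 fold changes were 1.15 ± 0.31 (SE, FDR 0.0027) at 20 nmol/kg and 2.17 ± 0.32 (FDR 3.7e-07), a 4.5-fold rise, at 30 nmol/kg, and 1.995 ± 0.32 (FDR 3.9e-06) and 1.56 ± 0.32 (FDR 0.00011) with 20 and 100 nmol/kg semaglutide. In the 100 nmol/kg semaglutide group, library 81 held 1298 TPM and the other 5 held 211 to 505 TPM.

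Igfbp2, another binding protein of the liver, rose in every treated group. It ranged from 204 through 275 to 437 TPM in vehicle, from 389 through 517 to 656 TPM at 3 nmol/kg and from 552 through 715 to 743 TPM at 30 nmol/kg BI 456906, and from 652 through 732 to 1205 TPM with 100 nmol/kg semaglutide. Apart from 3 nmol/kg, no treated group overlapped vehicle. The log2 fold change was 0.77, 0.88, 1.02 and 1.13 with rising dose of BI 456906 and 1.10 and 1.34 with 20 and 100 nmol/kg semaglutide, each ± 0.17 (SE), with FDR from 9.6e-08 to 0.0041. Its slope over the 4 doses without vehicle was 0.13 ± 0.06 per 10 nmol/kg (FDR 0.069).

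The other components of the ternary IGF complex did not rise with Igf1. Igfals, which codes for the acid-labile subunit, ranged from 50.4 through 60.1 to 79.5 TPM in vehicle and from 41.4 through 60.9 to 80.5 TPM at 30 nmol/kg, where it differed on the log2 scale by -0.18 (95% interval -0.46 to 0.11), and did not pass in any comparison with vehicle (smallest unadjusted p 0.209 by limma/voom). Igfbp3, the main carrier in serum, ranged from 8.94 through 12.98 to 19.04 TPM in vehicle and from 7.77 through 9.63 to 14.04 TPM at 10 nmol/kg BI 456906. It fell at 10 and 20 nmol/kg, by 0.51 ± 0.18 and 0.47 ± 0.18 on the log2 scale (SE, FDR 0.021 and 0.029), but differed by -0.01 ± 0.17 (FDR 0.95) at 30 nmol/kg. The fall at 10 nmol/kg was lost without vehicle library 43 or 45 or BI 456906 library 55 or 58 (FDR up to 0.0705), that at 20 nmol/kg without vehicle 43 or 45 or BI 456906 61, 62 or 63 (FDR up to 0.0945), and both were lost on the log2(TPM + pseudocount) scale.

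Socs2, a growth hormone-induced inhibitor, varied between libraries of a group, with a coefficient of variation of 28.1% in vehicle and 28.7 to 61.4% in the treated groups. It ranged from 9.86 through 15.4 to 21.1 TPM in vehicle, from 5.95 through 13.01 to 27.6 TPM at 20 nmol/kg and from 13.1 through 24.6 to 48.8 TPM at 30 nmol/kg BI 456906, and from 15.3 through 35.2 to 67.4 TPM with 100 nmol/kg semaglutide. Every group overlapped vehicle. Its rise passed the test with 100 nmol/kg semaglutide, by 1.11 ± 0.36 on the log2 scale (SE, FDR 0.012), and its differences at 3, 10 and 20 nmol/kg BI 456906 were -0.32, -0.36 and -0.54 with SE of 0.38 to 0.39.

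Hepatocyte markers moved with treatment as well: their summed level was 73053 to 87487 TPM in vehicle and 92174 to 105991 TPM at 30 nmol/kg BI 456906, with 4 of 6 rising and Ttr falling. Of the 7 mesenchymal markers, 6 fell and 1 rose at this dose and their sum was 146 to 222 TPM against 174 to 329 TPM in vehicle. Of the 8 macrophage markers 3 fell, and of the 5 endothelial markers 1 rose and 1 fell. Both adipocyte markers that were tested in liver, Cidec and Fabp4, fell (-1.52 and -0.81). The part of these shifts in the 10 genes' changes was not tested.

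**Figure D2:**
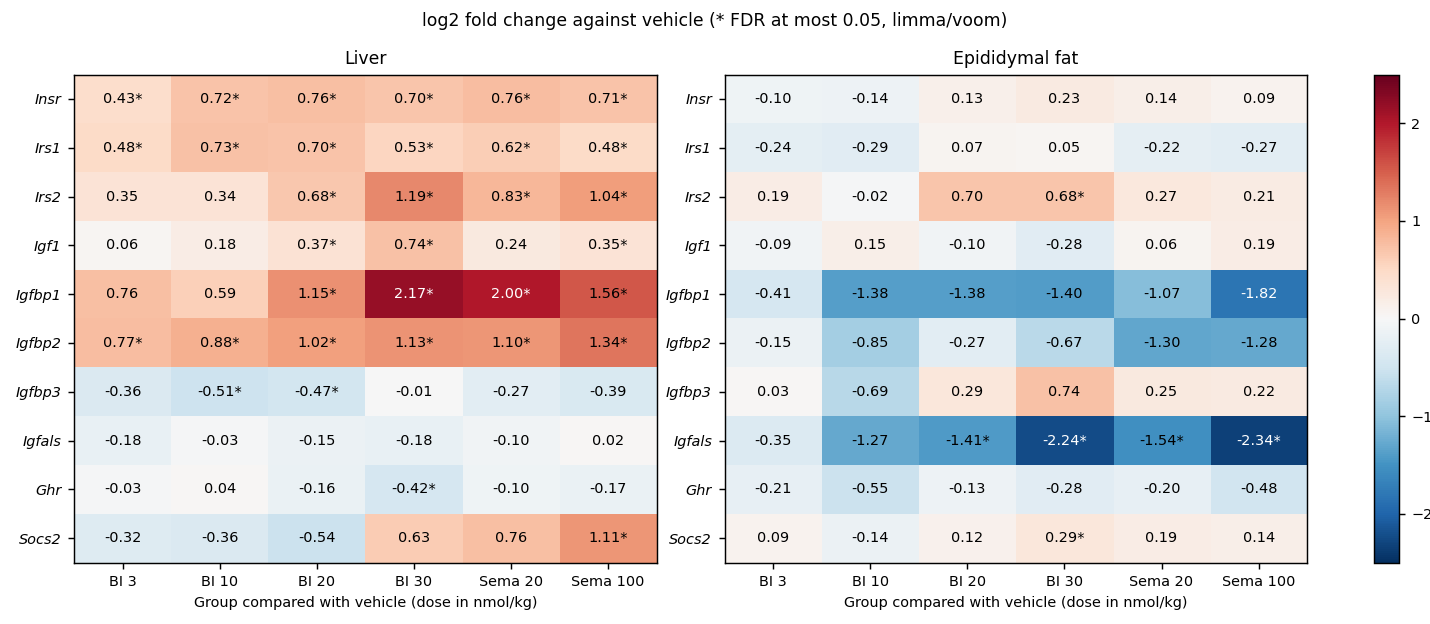
Fitted log2 fold change of the 10 genes (rows) in the 6 treated groups against vehicle (columns), in liver and in eWAT, with an asterisk where the FDR was at most 0.05. The liver panel holds 33 asterisks of 60 and the eWAT panel 6 of 60, of which 4 are falls of Igfals.

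Along the dose of BI 456906 from vehicle to 30 nmol/kg, 7 of the 10 genes had a slope in liver, where 58.9% of all genes did. Insr, Irs1, Irs2, Igf1, Igfbp1 and Igfbp2 rose and Ghr fell. Igfbp1 had the steepest slope, 0.61 ± 0.09 (SE) per 10 nmol/kg. Without vehicle, over the 4 doses alone, 4 of the 10 kept a slope, where 41% of all genes did: Irs2, Igf1 and Igfbp1 upward and Ghr downward. Insr, Irs1 and Igfbp2 had reached most of their difference from vehicle at 3 or 10 nmol/kg, and Irs1 had a slope of 0.01 ± 0.04 over the 4 doses.

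At the equal dose of 20 nmol/kg, 0 of the 10 genes differed between BI 456906 and semaglutide in liver by limma/voom, where 2.42% of all genes did, and edgeR and DESeq2 also gave 0. An unadjusted p under 0.05 was reached by 2 genes. Socs2 was 5.95 to 27.6 TPM with BI 456906 and 13.2 to 46.8 TPM with semaglutide, a log2 difference of -1.30 (95% interval -2.07 to -0.52, FDR 0.058), which passed the test when BI 456906 library 65 or semaglutide library 78 was left out (-1.55 and -1.49). Igfbp1 was lower with BI 456906 by a log2 difference of -0.85 (interval -1.51 to -0.18, FDR 0.18). The intervals were narrowest for Ghr (-0.25 to 0.13), Insr (-0.22 to 0.21), Irs1 (-0.17 to 0.33) and Igf1 (-0.14 to 0.40), so a difference of 1 on the log2 scale lay outside them.

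BI 456906 at 30 nmol/kg differed from 20 nmol/kg semaglutide in 2 of the 10 genes in liver, where 13.6% of all genes did. The doses are not equal, and the values are given side by side. Igf1 was 408 to 523 TPM with BI 456906 and 296 to 404 TPM with semaglutide, with no overlap and a log2 difference of 0.50 ± 0.14 (SE, FDR 0.012), and without semaglutide library 78 it was 0.42 (FDR 0.0502). Ghr was 181 to 221 TPM and 206 to 247 TPM, a log2 difference of -0.32 ± 0.09 (FDR 0.02), which did not pass without BI 456906 library 71 or semaglutide library 77 (FDR up to 0.065). Against 100 nmol/kg semaglutide 0 of the 10 passed by limma/voom, where 9.75% of all genes did, with 3 at an unadjusted p under 0.05, 0 by edgeR and 1 by DESeq2. Igf1 was 342 to 395 TPM in that group, below every library at 30 nmol/kg BI 456906, with a log2 difference of 0.39 ± 0.14 (FDR 0.058). Without semaglutide library 81, Ghr and Igfbp1 passed the test at -0.31 and 0.97. Insr and Irs1 differed by -0.10 to 0.05 in these comparisons, with intervals within -0.35 to 0.30.

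Of 14 other genes of the insulin relay in liver, 9 rose and 2 fell at 30 nmol/kg BI 456906, where 58.8% of all genes changed, and this share is also the background of the liver lists that follow at this dose. The largest rises were of Pdpk1 (log2 fold change 1.23), the kinase that activates Akt, Foxo1 (0.98), the transcription factor that Akt inhibits, and Pik3r1 (0.95), a regulatory subunit of PI3K. Pik3r2 and Akt2 fell by 0.17 and 0.16. The median over the list, which was chosen with earlier results of these data known, was 0.25, against -0.03 for all genes. Of 11 brakes on the relay, 3 rose, among them Ceacam1 (0.64) and Ptpn1 (0.27), and Trib3 (-1.28) and Grb14 (-0.45) fell.

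Among 5 liver transcripts that insulin represses, Ppargc1a rose by 1.92 ± 0.14 (SE) and Pck1, a gluconeogenic enzyme, by 1.52 ± 0.17, while G6pc, Pdk4 and Sesn3 differed by 0.26, 0.45 and -0.25 and did not pass. Among 4 that insulin induces, 3 fell, among them Srebf1 and Fasn by 1.11 and 0.77. With semaglutide at 100 nmol/kg 2 of the 5 rose and 2 of the 4 fell, where 48.2% of all genes changed. The rise of Pck1 differs from the study, which noted no significant change for gluconeogenic enzymes such as phosphoenolpyruvate carboxykinase. Why the 2 differ was not tested.

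Of the 7 genes of the growth hormone relay, 3 rose and 3 fell in liver at 30 nmol/kg, where 58.8% of all genes changed. The transcription factors Stat5a and Stat5b fell by 1.09 ± 0.13 and 0.68 ± 0.13 (SE), while the prolactin receptor Prlr (1.04), Stat3 (0.65) and the adaptor Sh2b1 (0.20) rose, and Jak2 differed by 0.04. Stat5a was 4.84 to 8.46 TPM at 30 nmol/kg and 10.3 to 16.0 TPM in vehicle, with no overlap. Of 3 SOCS-family brakes, Socs3 rose by 0.77, and Cish and Socs1 differed by -0.07 and -0.59 and did not pass. Cish, like Socs2 a STAT5-induced inhibitor, fell at 10 and 20 nmol/kg by 1.15 ± 0.39 and 1.24 ± 0.40 (SE, FDR 0.019 and 0.0099).

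Transcripts that differ between the sexes in mouse liver follow the pattern of growth hormone secretion. Of 13 male-biased transcripts 6 fell at 30 nmol/kg, a share below the 58.8% of all genes that changed in either direction, with the largest falls for Cyp4a12a (-4.37), Selenbp2 (-3.57) and Mup20 (-2.40). Cyp4a12a was 40.7 to 69.2 TPM in vehicle and 0.21 to 8.51 TPM at 30 nmol/kg. With 100 nmol/kg semaglutide 3 of the 13 rose and 1 fell, and of the female-biased ones 1 rose and 3 fell, where 48.2% of all genes changed. Of 11 female-biased transcripts that were tested, from a list of 16, 5 rose and 2 fell, with rises of Cux2 (4.57), Cyp2a4 (4.39) and Cyp17a1 (2.16) and falls of Hao2 (-2.52) and Atp6v0d2 (-1.97). Cyp4a12a, Selenbp2 and Cyp2a4 have near-identical copies, and Mup20 has less similar relatives, among which reads may be split. Cux2 was 0.05 to 0.59 TPM in vehicle and 1.22 to 23.97 TPM at 30 nmol/kg.

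Of the IGF ligands, receptors and proteases in liver (6 of 8 tested), Igf1r (0.62) and Igf2r (0.25) rose and the protease Htra1 (-1.09) and Igf2 (-0.43) fell. Of the 4 other IGF-binding proteins only Igfbp7, which is expressed by endothelial and mesenchymal cells, passed the test, with a log2 fold change of -0.81.

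In eWAT, Igfals, which did not pass the test in liver, fell with both compounds, Irs2 and Socs2 rose at 30 nmol/kg BI 456906, and the other 7 genes passed in no comparison with vehicle. At 30 nmol/kg 3 of the 10 changed, where 23.9% of all 18536 genes tested did. At 20 nmol/kg BI 456906 and at 20 and 100 nmol/kg semaglutide 1 of 10 changed, where 4.27%, 6.33% and 14.9% of all genes did. At 3 and 10 nmol/kg 0 changed by limma/voom, edgeR or DESeq2, where 0.00539% and 0.513% of all genes did, with 0 and 2 at an unadjusted p under 0.05. At a log2 fold change of at least 1 in size the count was 1, Igfals, at 20 and 30 nmol/kg BI 456906 and at both semaglutide doses, where 1.49%, 6.34%, 2.24% and 4.13% of all genes were counted, and at 3 and 10 nmol/kg 0% and 0.232% of all genes were.

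**Figure D3:**
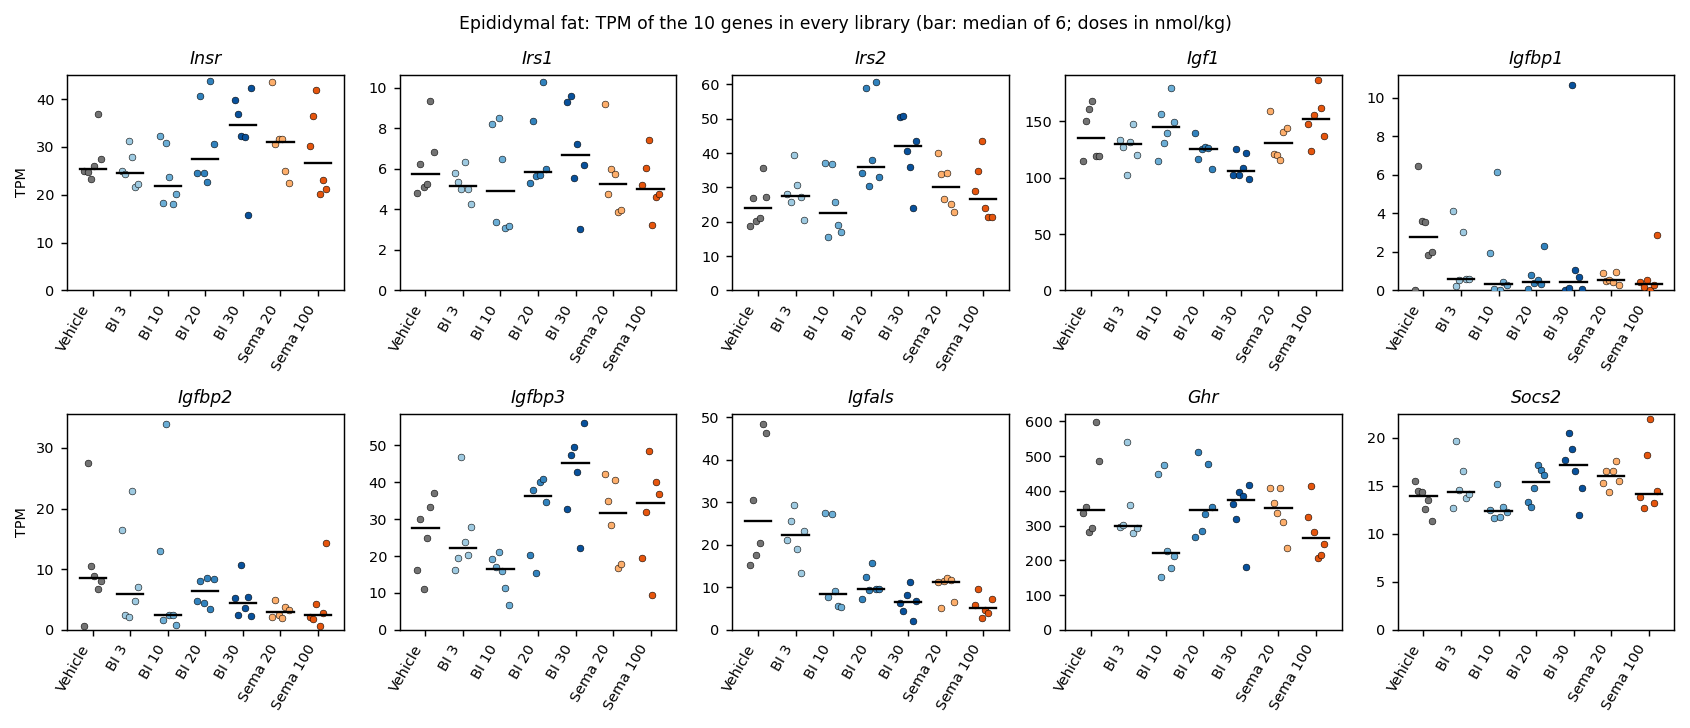
TPM of the 10 genes in each of the 42 eWAT libraries (points; y axis from 0), by group on the x axis, with a bar at the median of 6. The median of Igfals falls from 25.5 TPM in vehicle to 6.55 TPM at 30 nmol/kg BI 456906 and 5.21 TPM at 100 nmol/kg semaglutide, while Igfbp1 and Igfbp2 are low and uneven in every group.

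Igfals ranged from 15.3 through 25.5 to 48.5 TPM in eWAT of vehicle mice and from 13.3 through 22.2 to 29.3 TPM at 3 nmol/kg BI 456906. It ranged from 5.27 through 8.38 to 27.4 TPM at 10, from 7.23 through 9.54 to 15.7 TPM at 20 and from 2.12 through 6.55 to 11.2 TPM at 30 nmol/kg, and from 5.23 through 11.3 to 12.1 TPM and 2.82 through 5.21 to 9.69 TPM with 20 and 100 nmol/kg semaglutide. The groups at 30 nmol/kg BI 456906 and at both semaglutide doses lay wholly below vehicle, and 6.31%, 2.6% and 3.4% of all genes lay apart from vehicle in either direction. At 3, 10 and 20 nmol/kg, where 0.475%, 0.291% and 2.47% of all genes lay apart, Igfals overlapped vehicle. Relative to vehicle the log2 value was -1.27 ± 0.33 (SE, FDR 0.067) at 10 nmol/kg, -1.41 ± 0.34 (FDR 0.013) at 20, -2.24 ± 0.39 (FDR 0.00011) at 30 nmol/kg, and -1.54 ± 0.35 (FDR 0.0049) and -2.34 ± 0.40 (FDR 0.00013) with semaglutide. The value at 30 nmol/kg corresponds to 0.212 times the vehicle level. The slope was -0.69 ± 0.11 per 10 nmol/kg with vehicle and -0.63 ± 0.14 (FDR 0.0025) without it.

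Liver transcripts were present in the fat libraries, and most in vehicle. Alb ranged from 9.87 through 917 to 3680 TPM in vehicle, from 12.1 through 59.4 to 548 TPM at 30 nmol/kg BI 456906 and from 3.47 through 47.2 to 747 TPM at 100 nmol/kg semaglutide. Scaled by Alb to the mean of the vehicle livers, the vehicle fat libraries would hold 0.0131 through 1.22 to 4.88 TPM of Igfals from such transcripts, 5.49% of the mean measured. In the vehicle library with 9.87 TPM of Alb, Igfals was 15.3 TPM, the lowest of that group and above each library at 30 nmol/kg. With log2(Alb TPM + 1) as a covariate, the log2 fold change of Igfals was -1.87 at 30 nmol/kg and -1.96 with 100 nmol/kg semaglutide (FDR 0.0014 and 0.0034), and at 20 nmol/kg of BI 456906 and of semaglutide it was -1.12 and -1.14 and no longer passed (FDR 0.0532 and 0.0865). The call at 20 nmol/kg BI 456906 was also lost when only these groups were fitted (FDR 0.0635). Without the 5 libraries over 1000 TPM of Alb, 3 of them vehicle, it was -2.53 and -2.63 at the highest doses, and the fall at 10 nmol/kg passed (-1.83, FDR 0.0102).

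Igfbp1 and Igfbp2 in eWAT were compared with the level that liver transcripts would give. Igfbp1 ranged from 0 through 2.77 to 6.48 TPM in vehicle, where scaling by Alb gave 0.0272 through 2.53 to 10.2 TPM, and the scaled mean was 117% of the measured mean. In the treated groups it was 18.3 to 74.5% when scaled with vehicle livers, and 63.3 to 178% with the livers of the same group, in which Igfbp1 was higher (a choice made after seeing the data). For Igfbp2, which ranged from 0.63 through 8.48 to 27.5 TPM in vehicle, the scaled mean was 73.2% of the measured mean in vehicle, and in the treated groups 9.62 to 27.5% with vehicle livers and 19.5 to 50.2% with the livers of the same group. Their log2 differences from vehicle were -0.41 to -1.82 and -0.15 to -1.30 and did not pass. With log2(Alb TPM + 1) as a covariate the sign for Igfbp1 turned, to 1.99 at 30 nmol/kg BI 456906 and 1.95 at 20 nmol/kg semaglutide, both past the threshold (FDR 0.00075 and 0.0094), beside log2 fold changes of 2.17 and 1.995 in the livers of these groups. At 30 nmol/kg, library 27 held 10.7 TPM and the other 5 held 0.05 to 1.04 TPM. The fit with Alb as a covariate was not repeated without library 27, and the origin of Igfbp1 and Igfbp2 transcripts in eWAT was not tested. The genes most like Igfbp1 over the 42 eWAT libraries were Tat, Cyp4a14 and Hnf4a, with Pearson r of 0.94, 0.92 and 0.92, and those most like Igfbp2 were Cyp3a13, Itih4 and Clec4f, with r of 0.87, 0.87 and 0.86.

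**Figure D4:**
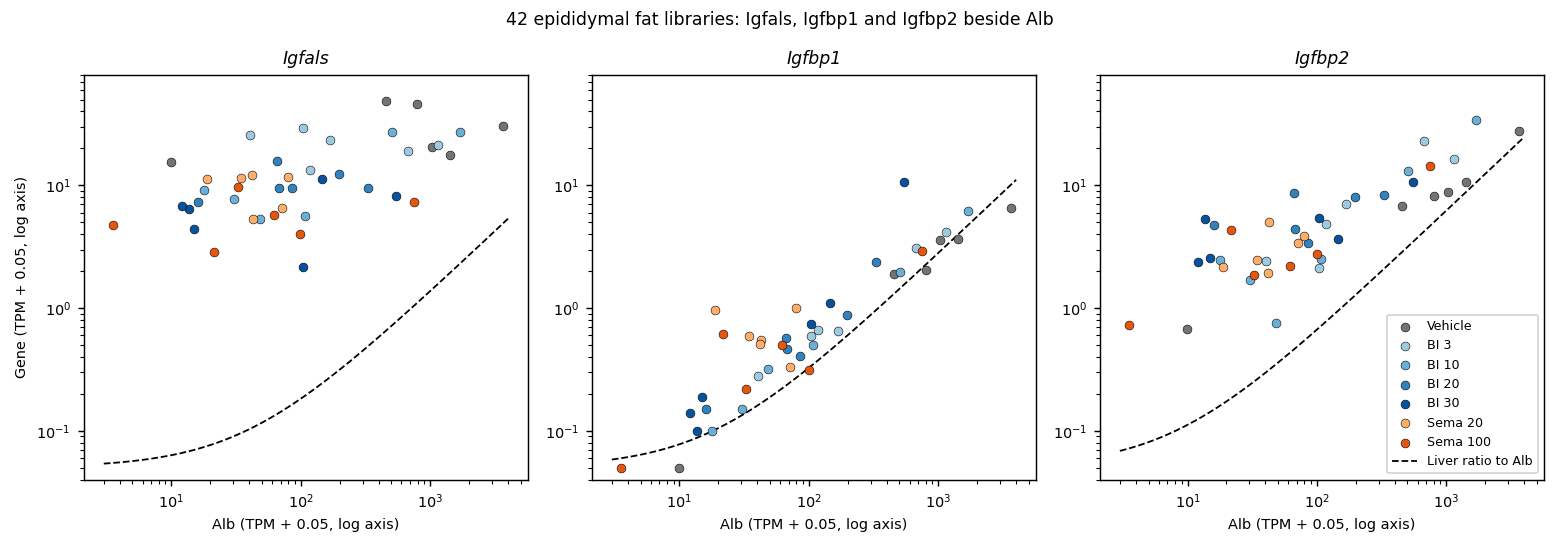
Level of Igfals, Igfbp1 and Igfbp2 (y axis) against that of Alb (x axis) in the 42 eWAT libraries, both as TPM + 0.05 on log axes, coloured by group, with a dashed line at the ratio of each gene to Alb in vehicle livers. Igfals lies above the line in every library, whereas Igfbp1 lies nearest to it of the 3 genes and Igfbp2 approaches it in the libraries with most Alb.

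Irs2 in eWAT ranged from 18.9 through 23.97 to 35.6 TPM in vehicle, from 30.5 through 36.1 to 60.6 TPM at 20 nmol/kg and from 23.9 through 42.1 to 50.7 TPM at 30 nmol/kg BI 456906. With semaglutide it ranged from 22.7 through 30.3 to 40.02 TPM and from 21.3 through 26.5 to 43.5 TPM. All groups overlapped vehicle. Irs2 rose by 0.68 ± 0.22 on the log2 scale at 30 nmol/kg (SE, FDR 0.021), while the difference was 0.70 ± 0.22 (FDR 0.057) at 20 nmol/kg, and the slope was 0.25 ± 0.06 per 10 nmol/kg (FDR 0.0033). The call at 30 nmol/kg was lost without vehicle library 1 or BI 456906 library 25 or 26 (FDR up to 0.0532) and without the libraries over 1000 TPM of Alb (0.56, FDR 0.177). Socs2 was even in eWAT, from 11.4 through 13.97 to 15.5 TPM in vehicle and from 11.95 through 17.2 to 20.6 TPM at 30 nmol/kg. Its rise there, 0.29 ± 0.09 on the log2 scale (SE, FDR 0.014), did not pass on the log2(TPM + pseudocount) scale or with Alb as a covariate (0.23).

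In eWAT at 10 nmol/kg BI 456906, Insr, Irs1, Ghr and Igfals were highest in the libraries with most adipocyte markers. The adipocyte markers other than Lep summed to 10246 to 15423 TPM in 4 libraries and to 27657 and 28625 TPM in the other two. Alb was also highest in the latter, at 1705 and 505 TPM against 17.8 to 108 TPM in those 4, and its part was not tested within this group. Ghr was 151 to 228 TPM in those 4 and 474 and 450 TPM in the other two, Insr was 18.01 to 23.8 TPM against 30.8 and 32.2 TPM, Irs1 was 3.06 to 6.48 TPM against 8.5 and 8.2 TPM, and Igfals was 5.27 to 9.08 TPM against 27.2 and 27.4 TPM. With the log2 of this sum as a covariate, Ghr fell at 20 and 30 nmol/kg by 0.23 and 0.46 on the log2 scale, Irs2 rose at 20 nmol/kg BI 456906 and at 100 nmol/kg semaglutide as well (0.61 and 0.45), Insr rose at 100 nmol/kg semaglutide (0.29), Igf1 fell at 30 nmol/kg (-0.21, FDR 0.045), and Igfals differed from vehicle by -2.44 at 30 nmol/kg. The sum was measured in the treated tissue and may itself move with treatment. These adjusted values therefore depend on the choice of covariate, which was made after seeing the data. Without the libraries over 1000 TPM of Alb, Ghr fell at 10 nmol/kg (log2 value -0.997, FDR 0.036). Igf1 in eWAT ranged from 115 through 135 to 168 TPM in vehicle and from 98.6 through 105 to 125 TPM at 30 nmol/kg, a log2 difference of -0.28 ± 0.11 (SE, FDR 0.069). Igfbp3 ranged from 11.2 through 27.5 to 37.2 TPM and from 22.3 through 45.2 to 56.1 TPM, a difference of 0.74 ± 0.34 (FDR 0.11).

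Along the dose of BI 456906 in eWAT, 4 of the 10 genes had a slope, where 29.5% of all genes did. Irs2, Igfbp3 (0.27 ± 0.10 per 10 nmol/kg, FDR 0.036) and Socs2 (0.09 ± 0.02) rose and Igfals fell. The slope of Socs2 was lost on the log2(TPM + pseudocount) scale (FDR up to 0.0876). The slope of Igfbp3 was lost without any of 6 single libraries (vehicle 1 and 3, and BI 456906 7, 26, 27 and 30, FDR up to 0.0714) and was 0.18 with the adipocyte sum as a covariate and 0.21 without the libraries over 1000 TPM of Alb, neither past the threshold. The mesothelial markers, of which 3 of 4 rose at 30 nmol/kg, summed to 43.6 to 142 TPM there and 8.48 to 82.4 TPM in vehicle, and the part of this shift was not tested. Between the compounds 0 of the 10 genes differed in eWAT by limma/voom. At the equal dose of 20 nmol/kg 0% of all genes differed, and 0 of the 10 had an unadjusted p under 0.05 and 0 passed by edgeR or DESeq2. At 30 nmol/kg BI 456906, 0% of all genes differed from 20 nmol/kg semaglutide and 0.0108% from 100 nmol/kg, and 1 and 2 of the 10 had an unadjusted p under 0.05. Igf1 was 98.6 to 125 TPM at 30 nmol/kg BI 456906 and 124 to 187 TPM at 100 nmol/kg semaglutide, with a log2 difference of -0.46 (95% interval -0.69 to -0.23, FDR 0.054), which passed by edgeR and DESeq2. For Igfals the interval at the equal dose was -0.64 to 0.91.

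Of the pathway lists in eWAT at 30 nmol/kg BI 456906, where 23.9% of all genes changed, the insulin relay had 4 of 14 genes up and 2 down, with Foxo1 (0.77), Foxo3 (0.60) and Pik3r1 (0.45) rising most and Pdpk1 (-0.14) and Pik3ca (-0.11) falling. Among the brakes, 3 of 11 rose, among them Grb10 (0.83) and Trib3 (0.40), and Inppl1 (-0.23) fell. In the growth hormone relay 2 of 7 fell, among them Stat5a (-0.26). The SOCS-family members Cish, Socs1 and Socs3 differed by 0.73, -0.87 and -0.39 and did not pass. Ppargc1a (1.15) and Pdk4 (0.76) rose and Sesn3 (-0.99) fell. Of the 4 insulin-induced transcripts 3 fell, among them Pnpla3 (-2.25) and the lipogenic enzyme Fasn (-1.06). In the local IGF system Pappa, a protease that cleaves IGF-binding proteins, rose by 1.13 and Igf1r by 0.38, and the binding proteins Igfbp6 and Igfbp7 rose by 0.69 and 0.46. Male-biased liver transcripts fell in 5 of 11 cases, among them Mup20 (-5.36), Cyp4a12a (-4.92) and Cyp2d9 (-4.34), and of 7 female-biased ones 2 rose, among them Fmo2 (1.21), and Cyp2b9 (-4.03) fell, beside hepatocyte markers whose sum was 22.2 to 6356 TPM in vehicle and 24.1 to 1062 TPM at 30 nmol/kg.

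The effects of treatment were compared between liver and eWAT by the interaction in a joint fit of 84 libraries. This fit treats the libraries as independent, which may not hold, since liver and eWAT of the same mouse cannot be matched. Insr, Irs1, Irs2, Igf1, Igfbp1, Igfbp2 and Igfals passed in at least 1 comparison, and the share of all genes that did so was not computed. The counts were 4, 2 and 4 of 10 at 10, 20 and 30 nmol/kg BI 456906 and 5 and 5 at 20 and 100 nmol/kg semaglutide, where 26.7%, 31.9%, 45.9%, 31.8% and 33.9% of all genes differed. At 3 nmol/kg 0 passed by limma/voom, edgeR or DESeq2, with 2 at an unadjusted p under 0.05, where 3.37% of all genes did. In all 20 cases the effect in liver was the more positive one, and the directions over all genes were not counted. Some of these cases are of Igfbp1 and Igfbp2. In vehicle fat, liver transcripts scaled by Alb came to 117% and 73.2% of their measured means, and the part of this was not tested. Igf1 at 30 nmol/kg differed by 0.91 ± 0.17 (SE, FDR 1.3e-05), with 0.74 in liver and -0.28 in eWAT in the separate fits, and Igfals by 1.96 ± 0.39 (FDR 3e-05).

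The genes whose log2 levels were most like those of each member over the 42 libraries of a tissue describe how the members were grouped. For Insr in liver they were Xiap, A1cf and Ncoa2 (Pearson r 0.97, 0.96 and 0.95), for Igf1 Trappc13, Por and U2af1 (0.89, 0.87 and 0.86), for Ghr Hsd3b2, Klkb1 and Nat8f1 (0.91, 0.90 and 0.90), and for Igfbp1 Arl4a, Cln8 and Gm42732 (0.88, 0.84 and 0.83). Irs2 and Igfbp2 in liver shared Atf2 among their 3 most similar genes (0.84 and 0.86). In eWAT they were C130074G19Rik, Epb41l2 and Hspa12a for Igfals (0.96, 0.95 and 0.95), Gnai1, Ric3 and Tshr for Ghr (0.97, 0.96 and 0.96), and Sik2, Pde3b and Rrm2b for Insr (0.95, 0.95 and 0.94). The points share the treatment groups and the composition of each library.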

How the data were processed

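RNA-seq tables of 42 liver and 42 eWAT libraries were used, in 7 groups of 6 per tissue. The deposited signal is read counts that the authors divided by 1 factor per library (STAR 2.5.2b, RSEM 1.3.0 and featureCounts 1.5.1 in the submitters' processing notes, mm10/GRCm38). Every nonzero value was a whole multiple of 1 step per library (tolerance 0.01), which gave the recovered reads. Deposited totals per liver library were 39215430 to 45166953, so the lower depth of libraries 77 and 81 did not enter the weights of the main test. The TPM values were used as deposited by the authors. Labels and the study's methods describe different library kits, and strandedness is therefore uncertain. Gene positions are from GENCODE M21.

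The main test was limma/voom (voom offset 0.5, limma 3.58.1, edgeR 4.0.16, R 4.3.3) on the deposited signal with TMM factors and filterByExpr, in 1 fit per tissue over 7 groups (15964 genes in liver, 18536 in eWAT), and 1 fit of both tissues for interactions (15297 genes). FDR was Benjamini-Hochberg over all genes tested. P-values measure the spread between libraries. The labels give each library its own number, and no 2 libraries of a group were alike within counting error (lowest chi-square per degree of freedom 16.0 in liver and 13.5 in eWAT, over 105 pairs each). The liver fit was tried on simulated whole counts only. The eWAT, interaction and covariate fits and the scaled signal were not simulated. No batch is given in the labels.

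Alternatives were library sizes or RLE factors in place of TMM, a minimum of 10 counts per library or no filter at all, edgeR quasi-likelihood and DESeq2 1.42.0 on recovered reads, log2(TPM + 1) and log2(TPM + 0.1) in limma, each library left out, the groups compared alone, and the slope without vehicle. The covariates Alb and adipocyte markers, and the limit of 1000 TPM of Alb, were chosen after seeing the data. Both covariates were measured in the treated tissue, so these fits cannot separate a treatment effect from a shift in the covariate. The 10 genes and all lists were chosen with earlier results of these data known. From each pathway list the text names up to 3 of the largest rises and falls at 30 nmol/kg BI 456906. Other list genes, Cish among them, were named after their values were seen. Some genes of the lists are counted but not reported here by name.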

Additional observations from a re-analysis of the deposited data

Results flagged for a closer look

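A library far from the other 5 of its group, by Dixon's criterion (a gap over 0.625 of the group's range), was found in 15 of 140 groups, where chance flags about 1 in 20. In the 100 nmol/kg semaglutide livers, library 81 was the highest for Igfbp1 (1298 TPM, others 211 to 505) and Igfbp2 (1205 TPM, others 652 to 769). Library 81 held 30040261 recovered reads, against a liver median of 43179390. In liver, Ghr was 202 TPM in library 51 at 3 nmol/kg BI 456906 (others 239 to 259) and Socs2 was 20.8 TPM in library 56 at 10 nmol/kg (others 10.8 to 13.5). In eWAT, Igfbp1 was 6.14 TPM in library 15 at 10 nmol/kg, 2.32 TPM in library 24 at 20 nmol/kg, 10.7 TPM in library 27 at 30 nmol/kg and 2.87 TPM in library 42 at 100 nmol/kg semaglutide, with the others at 1.93 TPM or less. Igfbp2 was 27.5 TPM in vehicle library 2, 33.96 TPM in library 15, 10.7 TPM in library 27 and 14.4 TPM in library 42. Vehicle library 5 held 36.9 TPM of Insr (others 23.4 to 27.4), library 9 at 3 nmol/kg held 541 TPM of Ghr (others 277 to 359), and library 15 held 15.2 TPM of Socs2 (others 11.7 to 12.8).

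The effects on Insr differed between liver and eWAT by 0.79, 0.54, 0.55 and 0.56 on the log2 scale (liver minus eWAT) at 10 and 20 nmol/kg BI 456906 and 20 and 100 nmol/kg semaglutide. The differences for Irs1 were 0.96 at 10 nmol/kg BI 456906 and 0.77 at 20 nmol/kg semaglutide, that for Irs2 was 0.77 at 100 nmol/kg semaglutide, and that for Igf1 was 0.91 at 30 nmol/kg BI 456906. For Igfals the differences were 1.19, 1.17 and 1.96 at 10, 20 and 30 nmol/kg BI 456906 and 1.37 and 2.31 with 20 and 100 nmol/kg semaglutide. Igfbp1 differed by 3.47 at 30 nmol/kg BI 456906 and by 3.00 and 3.34 with 20 and 100 nmol/kg semaglutide. Igfbp2 differed by 1.69 and 1.70 at 10 and 30 nmol/kg BI 456906 and by 2.34 and 2.57 with 20 and 100 nmol/kg semaglutide. Leaving out 1 library removed 9 of these 20 calls. The call for Igfbp2 at 10 nmol/kg was lost without any of liver 45, 46, 48, 58 and 60 or eWAT 2, 3, 4, 6, 14, 16, 17 and 18 (FDR up to 0.139), and that at 30 nmol/kg without eWAT 2 (0.0707). For Igfbp1 the call at 20 nmol/kg semaglutide was lost without eWAT 2, 3, 4, 5, 6, 32, 34 or 36 (0.0963) and that at 100 nmol/kg without eWAT 2, 3 or 40 (0.074). For Insr the calls were lost at 20 nmol/kg BI 456906 without liver 43, 45, 48 or 63 (0.0674), at 20 nmol/kg semaglutide without liver 43, 45 or 48 (0.0601) and at 100 nmol/kg without liver 48 (0.0504). For Irs1 the call at 20 nmol/kg semaglutide was lost without liver 46, 48 or 74 (0.06), and for Irs2 at 100 nmol/kg without liver 43, 46, 48, 81 or 82 or eWAT 5 (0.103). The eWAT values of Igfbp1 and Igfbp2 moved with Alb, and its part in these differences was not tested.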

How the results depend on the processing

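The 10 genes gave 33 calls of 60 against vehicle in liver, 31 to 33 under the other settings and 29 to 35 with 1 library left out. In eWAT there were 6, with 5 to 9 when a library was left out and 12 with the adipocyte sum as a covariate, the additions being Ghr, Igf1, Insr and Irs2. The slope in liver was called for 7 genes, and for 4 over the 4 doses without vehicle. At equal dose in liver 0 became 1 (Socs2) at most when a library was left out, and for 30 nmol/kg BI 456906 against semaglutide the count of 2 ranged from 1 to 4. In eWAT the count of 0 against semaglutide became 1 (Igf1) with the filter of 10 counts, edgeR, DESeq2 or log2(TPM + 0.1), and ranged from 0 to 1 when a library was left out. The 20 differences between tissues became 10 without the filter on low counts, and ranged from 14 to 26 when a library was left out. Of the 72 called values, 33 of 644 refits under other settings and 71 of 1302 without a library lost the call and 0 reversed. The cause of these losses was not tested. Library size alone moved the median of the 10 genes by at most 0.0649 in size (log2, fell by 0.0649 in liver at 30 nmol/kg). No paired analysis was possible because every library has a number of its own. Low counts limit Igfbp1 in eWAT, with 0 to 421 reads.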
